A study of Mus musculus with 8 samples.

Results

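Toll-like receptor genes, the adaptor gene Myd88 and the receptor-like gene Cd180 were examined in whole spleens of Nix-null and wild-type mice. The genes were taken by symbol: Tlr1, Tlr2, Tlr3, Tlr4, Tlr6, Tlr7, Tlr8, Tlr9, Myd88 and Cd180. All 10 were represented on the arrays, by 16 probe sets, out of 18193 genes named by the platform annotation. RNA from spleens of 8-week-old Nix-/- mice (4 arrays, numbered 10, 2, 3 and 6 in their titles and written Nix_KO) and of wild-type mice of the same age (4 arrays, numbered 3, 4, 5 and 6, written WT) was hybridised to Affymetrix mouse arrays, 1 unpooled extract per array. Nix is the mitochondrial BCL2-family protein encoded by Bnip3l, and the question set by the study is what its absence does to cell death and red cell formation. No treatment was applied. The sources used here give neither the strain nor the sex nor the part of the gene that was removed, and each extract mixes all cell types of the spleen.

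Toll-like receptors are membrane proteins that recognise microbial molecules, at the cell surface for lipids and proteins and in endosomes for nucleic acids. Most of them signal through the adaptor MYD88 and the IRAK kinases to NF-kappaB and interferon regulatory factors, whereas TLR3 signals through TRIF, encoded by Ticam1. In the spleen they are carried by B cells, macrophages and dendritic cells, among other cell types. CD180, also called RP105, has the outer part of a Toll-like receptor without its signalling domain, and is found chiefly on B cells.

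Values are log2 of the deposited intensity of a probe set, the unit in which an Affymetrix array reads a transcript. Levels of different probe sets cannot be set against each other. A probe set was tested where it reached a log2 intensity of 5 in at least 4 of the 8 arrays, and it was called where its limma p, Benjamini-Hochberg adjusted over all 22347 probe sets tested, was under 0.05. Differences are Nix_KO minus WT. Nothing in the sources used here ties arrays to litters, so the p-values measure the spread between these animals.

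Some facts of the whole series bear on every result. The 3 probe sets annotated jointly to Bnip3l and its pseudogene read log2 9.52 to 13.16 in Nix_KO arrays and 9.38 to 12.57 in WT arrays, and none of them passed limma's test or had an unadjusted p under 0.05. They did not check the genotype labels, since the removed part of the gene is unstated and the pseudogene is read as well. All 25 tested markers of B cells, T cells and spleen stroma stood at or above log2 5 on every array. Pancreatic genes stood apart on Nix_KO 3, WT 3 and WT 5, where their summed intensity ran from 14890 to 103770, against 1125 to 2788 on the other 5 arrays. Over all probe sets 6711 were called, 2789 higher (41.6% of the calls) and 3922 lower in Nix_KO. The median difference of all probe sets tested was -0.12, and with each array centred on its median the calls were 3377 higher (52.4%) and 3073 lower.

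Of the 10 genes, 4 were lower in Nix_KO spleens: Cd180, Tlr1, Tlr3 and Myd88. Of the 16 probe sets 13 passed the filter on low values, and these cover 9 genes. Among the 13, 5 probe sets were called lower by limma (38.5%), 0 were called higher, and 8 did not pass, and at an unadjusted p under 0.05 the counts were also 5 and 0. Over all probe sets tested 30% were called, 17.6% as lower and 12.5% as higher. The same 5 probe sets were the ones whose Nix_KO and WT arrays did not overlap, which held for 34.6% of all probe sets, 19.5% with Nix_KO lower and 15% with Nix_KO higher. Counted over genes, 4 of the 9 tested did not overlap, beside 39.6% of all genes tested (23.9% with Nix_KO lower and 15.7% with Nix_KO higher). The median difference of the 13 probe sets was -0.24, beside -0.12 for all probe sets tested. The probe set of Tlr8 and a further pair of Tlr4 probe sets stayed below log2 5 on every array and were not tested.

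**Figure D1:**
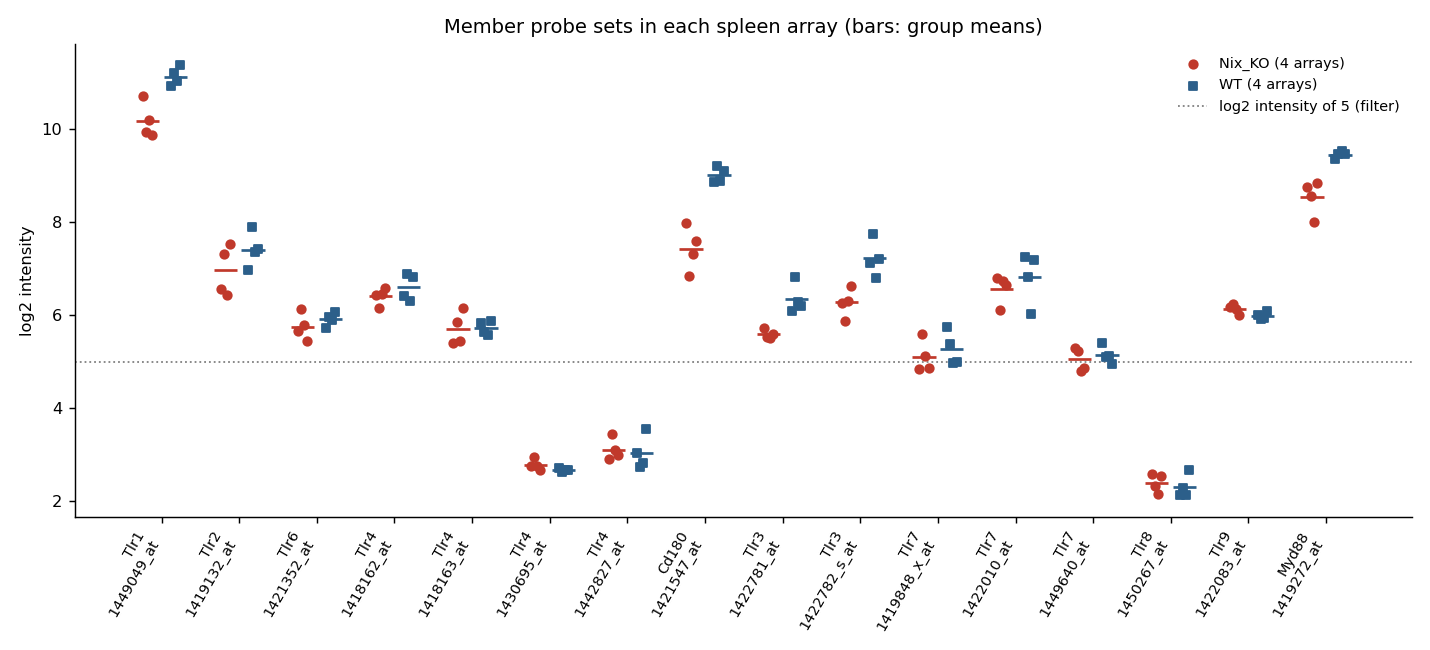
log2 intensity of each of the 16 probe sets (horizontal axis) in the 4 Nix_KO arrays (circles) and the 4 WT arrays (squares), with group means as bars and the filter level of 5 as a dotted line. The Nix_KO and WT points are separate for Cd180, Tlr1, Myd88 and both probe sets of Tlr3, and overlap for the other probe sets.

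Promoter sequences are shown for the 4 genes that were lower in Nix_KO and for Tlr9, whose mean was above the WT mean. The sequences are from RefSeq on build GRCm38.p6, 250 bases before to 50 bases after the first start site listed, read 5′ to 3′ on the gene's strand. They lie at chr13:102693297-102693596, plus strand, for Cd180, chr5:64933509-64933808, minus strand, for Tlr1, chr8:45410331-45410630, minus strand, for Tlr3, chr9:119339969-119340268, minus strand, for Myd88 and chr9:106222348-106222647, plus strand, for Tlr9. Capitals mark matches on either strand to any of the 4 motifs searched.
Cd180: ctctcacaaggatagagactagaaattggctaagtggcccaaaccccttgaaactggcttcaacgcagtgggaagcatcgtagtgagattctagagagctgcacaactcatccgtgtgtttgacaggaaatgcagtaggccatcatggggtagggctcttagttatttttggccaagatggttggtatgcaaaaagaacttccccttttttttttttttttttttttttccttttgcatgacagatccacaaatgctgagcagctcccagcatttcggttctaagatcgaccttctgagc
Tlr1: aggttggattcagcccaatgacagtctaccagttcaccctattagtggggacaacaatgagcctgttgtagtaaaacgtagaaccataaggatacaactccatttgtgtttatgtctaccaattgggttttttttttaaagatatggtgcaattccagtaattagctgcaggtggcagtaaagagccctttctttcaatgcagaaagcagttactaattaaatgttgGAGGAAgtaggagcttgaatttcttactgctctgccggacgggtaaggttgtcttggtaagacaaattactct
Tlr3: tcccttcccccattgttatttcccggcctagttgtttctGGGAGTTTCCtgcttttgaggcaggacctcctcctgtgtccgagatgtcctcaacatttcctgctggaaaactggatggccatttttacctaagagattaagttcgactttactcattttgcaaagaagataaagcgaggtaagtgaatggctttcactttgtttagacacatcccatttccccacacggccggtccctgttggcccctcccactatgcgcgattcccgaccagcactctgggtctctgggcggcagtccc
Myd88: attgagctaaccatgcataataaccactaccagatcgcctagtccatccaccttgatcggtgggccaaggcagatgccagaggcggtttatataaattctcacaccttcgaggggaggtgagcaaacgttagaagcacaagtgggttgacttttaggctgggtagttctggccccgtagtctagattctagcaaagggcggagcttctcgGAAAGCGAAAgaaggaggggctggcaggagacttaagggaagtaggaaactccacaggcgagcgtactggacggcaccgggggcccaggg
Tlr9: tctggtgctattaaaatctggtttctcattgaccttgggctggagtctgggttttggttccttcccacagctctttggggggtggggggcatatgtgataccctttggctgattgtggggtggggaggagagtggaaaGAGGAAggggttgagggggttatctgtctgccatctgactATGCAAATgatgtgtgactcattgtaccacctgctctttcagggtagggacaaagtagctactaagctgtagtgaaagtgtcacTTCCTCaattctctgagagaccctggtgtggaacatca

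The motifs were the GAGGAA core bound by PU.1 and other ETS factors, the octamer ATGCAAAT, the interferon-stimulated response element (GAAA, any 2 bases, GAAA), and the kappaB consensus. Of 27025 mouse promoters of the same length, 28.3%, 1.75%, 3.49% and 8.18% hold at least 1 match, in that order. The Tlr1 window held 1 GAGGAA, at positions -23 to -18 from the start site, the Myd88 window 1 interferon-stimulated response element, at -40 to -31, and the Tlr3 window 1 kappaB match, at -211 to -202. The Tlr9 window held GAGGAA at -112 to -107 and, on the other strand, at 13 to 18, and the octamer at -72 to -65. No match was found in the Cd180 window, which says only that these letters are not in it. Matches did not overlap in these 5 windows, and no motif was matched in more than 1 of the 4 windows of genes that fell. Matches are descriptions of sequence and not binding sites. Promoters were listed for 8 of the 10 genes. Among the windows not shown, that of Tlr2 held kappaB matches, that of Tlr6 interferon-stimulated response elements and that of Tlr8 a GAGGAA. Tlr8 was not tested. The motifs found in windows of genes that fell also occur in genes tested and not called: kappaB in Tlr2, the interferon-stimulated response element in Tlr6 and GAGGAA in Tlr9.

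Among the receptors of the cell surface, the largest difference was that of Cd180. Its log2 intensity was 7.98, 6.85, 7.31 and 7.59 in Nix_KO arrays 10, 2, 3 and 6, against 8.87, 9.20, 8.89 and 9.10 in WT arrays 3, 4, 5 and 6. All 4 Nix_KO arrays were below all 4 WT arrays, and Nix_KO 10 and WT 3 were the nearest to each other. Cd180 was lower in Nix_KO by a log2 difference of -1.58 ± 0.23 (SE, 95% interval -2.11 to -1.06, limma adjusted p = 0.00307), with group means of 7.43 ± 0.48 in Nix_KO and 9.02 ± 0.16 in WT spleens (SD, n = 4 each). CD180 is held at the cell surface by its partner MD-1, encoded by Ly86. Ly86 read 11.32, 10.68, 10.79 and 11.25 in Nix_KO arrays 10, 2, 3 and 6 and 12.02, 12.19, 11.71 and 12.08 in WT arrays 3, 4, 5 and 6. These groups did not overlap either, and Ly86 was 1.98-fold lower (log2 -0.99 ± 0.19 SE, limma adjusted p = 0.00343 over the 11027 genes tested).

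TLR1 forms a pair with TLR2 to bind triacylated bacterial lipopeptides, and TLR6 pairs with TLR2 for diacylated ones. The Tlr1 probe set read 10.71, 9.93, 10.21 and 9.88 in Nix_KO arrays 10, 2, 3 and 6, against 10.92, 11.20, 11.04 and 11.37 in WT arrays 3, 4, 5 and 6. The groups did not overlap, though Nix_KO 10 came close to WT 3, the lowest WT array. Tlr1 was 1.93-fold lower in Nix_KO (log2 -0.95 ± 0.21 SE, limma adjusted p = 0.00952). Tlr6, its direct neighbour on chromosome 5 with 0 protein-coding genes between them, read 5.45 to 6.13 in Nix_KO and 5.72 to 6.08 in WT arrays. Its groups overlapped, and its difference was -0.16 with a 95% interval from -0.56 to 0.23 (limma adjusted p = 0.509). Tlr2, the shared partner, read 6.57, 7.32, 6.43 and 7.54 in Nix_KO arrays 10, 2, 3 and 6, against 6.98, 7.89, 7.35 and 7.42 in WT arrays 3, 4, 5 and 6. Nix_KO 10 and 3 were below every WT array, while Nix_KO 2 and 6 lay inside the WT range. The Tlr2 difference of -0.45 (95% interval -1.09 to 0.20) did not pass (limma adjusted p = 0.265). Over the alternatives its adjusted p lay between 0.0355 and 0.751, and it passed in the fit with array weights alone, where it was -0.86.

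Tlr4 is the receptor for bacterial lipopolysaccharide, which it binds through MD-2, the product of Ly96, with CD14 as a carrier. Both tested Tlr4 probe sets had overlapping groups. The first read 6.15 to 6.58 in Nix_KO and 6.30 to 6.88 in WT arrays (difference -0.20, 95% interval -0.60 to 0.21, limma adjusted p = 0.436). The second read 5.40 to 6.15 in Nix_KO and 5.58 to 5.87 in WT arrays (difference -0.02, 95% interval -0.45 to 0.42, limma adjusted p = 0.957), and its sign turned under centring and under quantile normalization. Both intervals include falls as well as rises. Ly96 and Cd14 differed by -0.43 and -0.36 and did not pass either (limma adjusted p = 0.0745 and 0.238 over genes). Ly96 passed under 2 of the alternatives, with its adjusted p ranging from 0.0222 to 0.204.

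Of the receptors of endosomes, Tlr3, which binds double-stranded RNA, was lower by both of its probe sets. One of them read 5.74, 5.54, 5.52 and 5.60 in Nix_KO arrays 10, 2, 3 and 6, against 6.09, 6.83, 6.28 and 6.21 in WT arrays 3, 4, 5 and 6. The other, which stands for the gene where 1 probe set was used, read 6.27, 5.89, 6.32 and 6.63 in those Nix_KO arrays and 7.13, 7.76, 6.81 and 7.22 in those WT arrays. In both, every Nix_KO array was below every WT array, and WT 4 was the highest. The falls were 1.69-fold (log2 -0.76 ± 0.18 SE, limma adjusted p = 0.0139) and 1.94-fold (log2 -0.95 ± 0.23 SE, limma adjusted p = 0.0142). Their falls differed by 0.20 (exact permutation p = 0.314, adjusted p = 0.857 over 5 pairs of probe sets of one gene).

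Tlr7, which recognises single-stranded RNA, was read by 3 probe sets, of which a pair lay near the filter level. The remaining one read 6.80, 6.11, 6.73 and 6.66 in Nix_KO arrays 10, 2, 3 and 6, against 7.25, 6.81, 6.02 and 7.20 in WT arrays 3, 4, 5 and 6. WT 5 was lower than all Nix_KO arrays, so the groups overlapped. Its difference was -0.24 with a 95% interval from -0.88 to 0.39 (limma adjusted p = 0.54). Those near the filter level had differences of -0.16 and -0.09 (limma adjusted p = 0.631 and 0.722), and the sign of the second turned when arrays were centred. Tlr8, the gene next to Tlr7 on the X chromosome, stayed between 2.17 and 2.59 in Nix_KO and between 2.13 and 2.68 in WT arrays and was not tested. Tlr9, which recognises unmethylated CpG DNA, read 6.18, 6.24, 6.15 and 6.01 in Nix_KO arrays 10, 2, 3 and 6, against 6.005, 5.93, 5.95 and 6.09 in WT arrays 3, 4, 5 and 6. These 8 values lie close together and not far above the filter level of 5, where differences may be compressed. Of the Nix_KO arrays 3 were above every WT array. Its difference of 0.15 had a 95% interval from -0.14 to 0.44 and did not pass (limma adjusted p = 0.401).

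Myd88 encodes the adaptor used by the Toll-like receptors here other than TLR3 and by the receptors of interleukins 1 and 18. It read 8.76, 8.57, 8.01 and 8.84 in Nix_KO arrays 10, 2, 3 and 6, against 9.36, 9.46, 9.54 and 9.47 in WT arrays 3, 4, 5 and 6. The WT arrays were close to each other and all Nix_KO arrays lay below them, with Nix_KO 3 lowest. Myd88 was 1.88-fold lower in Nix_KO (log2 -0.91 ± 0.19 SE, limma adjusted p = 0.0084), with means of 8.55 ± 0.37 in Nix_KO and 9.46 ± 0.07 in WT spleens (SD, n = 4 each).

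**Figure D2:**
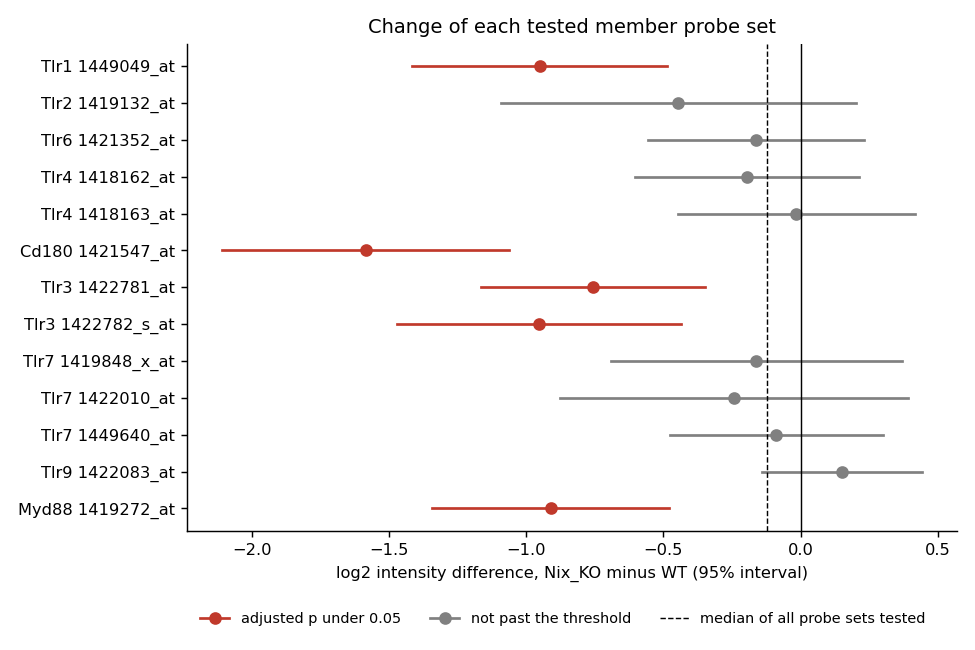
Difference in log2 intensity, Nix_KO minus WT, of the 13 tested probe sets with 95% intervals, in red where the adjusted p was under 0.05. The red intervals of Cd180, Tlr1, both Tlr3 probe sets and Myd88 lie below 0 and below the median of all probe sets (dashed, -0.12), and Tlr9 is the one point above 0 on the deposited scale.

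The 5 calls held whichever single array was left out, with the difference of Cd180 between -1.77 and -1.39, of Tlr1 between -1.13 and -0.85 and of Myd88 between -1.01 and -0.73. With each array centred on its median they were -1.46 for Cd180, -0.83 for Tlr1, -0.79 for Myd88 and -0.63 and -0.83 for Tlr3, and all 5 passed. Without Nix_KO 3, WT 3 and WT 5, the arrays with pancreatic signal, 0 of the 5 passed limma's test over all probe sets, 5 had an unadjusted p under 0.05, and 4 member genes passed in the fit over genes. The differences without those 3 arrays were -1.68 for Cd180, -1.11 for Tlr1, -0.74 for Myd88 and -0.90 and -1.22 for Tlr3 (limma adjusted p = 0.0548, 0.0848, 0.0793, 0.0859 and 0.0708).

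Whether the genes changed by different amounts was examined over all 36 pairs of the 9 tested genes, after their values had been seen. In 13 pairs the exact permutation p was 0.0286, the smallest that 4 against 4 arrays can give, but after adjustment over the 36 pairs it was 0.0791 and 0 pairs passed. Cd180 was involved in 6 of the 13. On the log2 scale, its difference minus that of Tlr9 was -1.74, minus that of Tlr6 -1.42, minus that of Tlr4 -1.39 and minus that of Myd88 -0.67. The difference of Tlr1 minus that of its neighbour Tlr6 was -0.79, at the same smallest p. Tlr6 and Tlr9 read not far above the filter level of 5, where differences may be compressed, so contrasts with them are uncertain in size. The falls of Tlr1, Myd88 and the Tlr3 probe set with the larger fall differed by 0.04 at most. The other Tlr3 probe set, with a difference of -0.76, was not among these pairs.

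Other genes of the pathway were followed in 8 lists by role, of which 70 genes passed the filter. Of these 33 were lower and 2 higher in Nix_KO (50%, where 38.3% of all 11027 genes tested were called, 24.1% as lower and 14.2% as higher), with a median of -0.59 beside -0.15 for all genes. Of the remaining Toll-like receptors Tlr12, which recognises parasite profilin in the mouse, and Tlr13 passed the filter. Tlr12 did so through the WT arrays and Nix_KO 10, so its call supports nothing about the list. Tlr12 read 5.27, 3.63, 4.13 and 4.64 in Nix_KO arrays 10, 2, 3 and 6, and 5.29, 5.82, 6.39 and 5.99 in WT arrays 3, 4, 5 and 6. The other 3 Nix_KO values were below the filter level, where the size of a difference is uncertain, and Nix_KO 10 almost met WT 3. The log2 difference of -1.45 ± 0.34 (SE, limma adjusted p = 0.00835) became -0.80 with values below 5 set to 5, and it did not pass without Nix_KO 3, WT 3 and WT 5 (limma adjusted p = 0.0775).

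Of 11 tested co-receptors and chaperones 5 were lower and 0 higher (45.5%, beside 38.3% of all genes called), with a median of -0.43. Hsp90b1, a chaperone of Toll-like receptors, and Lrrc59 were among the 6 that did not pass, with differences of -0.15 and -0.09. Their second probe sets differed by -0.39 and 0.30 and did not pass. Unc93b1, which carries nucleic acid receptors to endosomes, read 10.03, 9.40, 9.56 and 10.12 in Nix_KO arrays 10, 2, 3 and 6, against 10.84, 11.06, 11.08 and 11.10 in WT arrays 3, 4, 5 and 6. Its groups were well apart, and it was 2.37-fold lower (log2 -1.25 ± 0.19 SE, limma adjusted p = 0.00159). Slc15a4, a lysosomal peptide and histidine transporter needed for TLR7 and TLR9 responses in mouse cells, was 2.83-fold lower (log2 -1.50 ± 0.21 SE, limma adjusted p = 0.00132). Cnpy3, a chaperone of several Toll-like receptors, was 1.86-fold lower, and Slc15a3, a relative of Slc15a4, 1.61-fold lower. Whether Unc93b1 fell more than Tlr7 or Tlr9 was not tested.

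In the signalling chain, 1 of 3 other adaptors tested was lower (33.3%, beside 38.3% of all genes called). It was Ticam1, which encodes TRIF, an adaptor used by TLR3 (1.75-fold, log2 -0.81 ± 0.19 SE, limma adjusted p = 0.00819). Whether the falls of Ticam1 and Tlr3 are linked was not tested. Tirap, the bridging adaptor of TLR2 and TLR4, had a difference of -0.38 (limma adjusted p = 0.131, and 0.0276 to 0.491 over the alternatives, of which 2 passed). A second Tirap probe set went the other way, by 0.27, and did not pass (limma adjusted p = 0.373 over probe sets). Of 16 kinases and ubiquitin ligases 4 were lower and 1 higher, with a median of -0.09. The share called, 31.2%, was below the 38.3% of all genes. Map3k8, Ikbkb and Btk, kinases of the NF-kappaB and B cell receptor pathways, were 1.94-fold, 1.91-fold and 1.54-fold lower. Of 3 Ikbkb probe sets 2 were called lower, and the other differed by 0.04 and did not pass. Tab3, which binds the kinase TAK1, was 4.24-fold higher (log2 2.09 ± 0.30 SE, limma adjusted p = 0.0014). Irak1 and Traf6, a kinase and a ligase that act directly after MYD88, had differences of -0.19 and -0.14 and did not pass (limma adjusted p = 0.523 and 0.476), although 1 of 4 Irak1 probe sets was called lower. Their signs turned in some fits, Irak1 with array weights and without Nix_KO 6, Traf6 with quantile normalization.

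Of 11 transcription factors 8 were lower and 0 higher (72.7%, beside 38.3% of all genes called, 24.1% as lower), with a median of -0.77. In 9 of the 11 the Nix_KO mean was below the WT mean. Irf7 went the other way, with a difference of 0.63, and did not pass (limma adjusted p = 0.0533). Nfkb2 and Relb, which form the NF-kappaB dimer of the alternative pathway, were 3.24-fold and 3.15-fold lower (limma adjusted p = 0.000935 and 0.00159). Irf5, which acts after MYD88, and Irf3, which acts after TRIF, were 2.62-fold and 1.71-fold lower (limma adjusted p = 0.00118 and 0.003). A second probe set of Irf5 differed by 0.03 and did not pass. Of 10 inhibitors of the pathway tested 8 were lower and 0 higher (80%, beside the same 38.3%), with a median of -0.81. Tollip went the other way, with a difference of 0.28 and groups that did not overlap, and did not pass (limma adjusted p = 0.106). Irak3, which blocks signalling at the IRAK step, was 2.50-fold lower, Zc3h12a, an RNase acting on cytokine transcripts, 2.55-fold, Tnip1 1.91-fold and Tnfaip3, encoding A20, 1.88-fold (limma adjusted p = 0.00148, 0.00165, 0.00317 and 0.00421). Nfkbia, the inhibitor that holds NF-kappaB in the cytoplasm, was 1.97-fold lower (limma adjusted p = 0.00719), and all 5 of its probe sets were called lower.

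Of 20 genes that Toll-like receptors induce, 10 passed the filter. Of these 4 were lower and 0 higher (40%, near the 38.3% of all genes called): Ccl5 (2.22-fold), Icam1 (2.30-fold), Cxcl10 (2.48-fold) and Il12a (1.62-fold), with limma adjusted p = 0.00227, 0.00416, 0.00578 and 0.0102. In the list of interleukin 1 family receptors and ligands, Il18r1 and Il18rap, the chains of the interleukin 18 receptor, were 1.71-fold and 1.51-fold lower, and Il1rl2, the receptor of interleukin 36, was 1.37-fold higher (limma adjusted p = 0.00991, 0.0207 and 0.0361). The other 4 of the 7 tested did not pass, so 42.9% were called, near the 38.3% of all genes. Il1rl2 lost its call under 8 of 16 alternatives, among them leaving out any one of Nix_KO 10, 2 and 6 and WT 4, 5 and 6 (0.39 to 0.49), and Il18rap under 6, among them leaving out Nix_KO 3, WT 3 or WT 4 (-0.59 to -0.52) and centring.

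**Figure D3:**
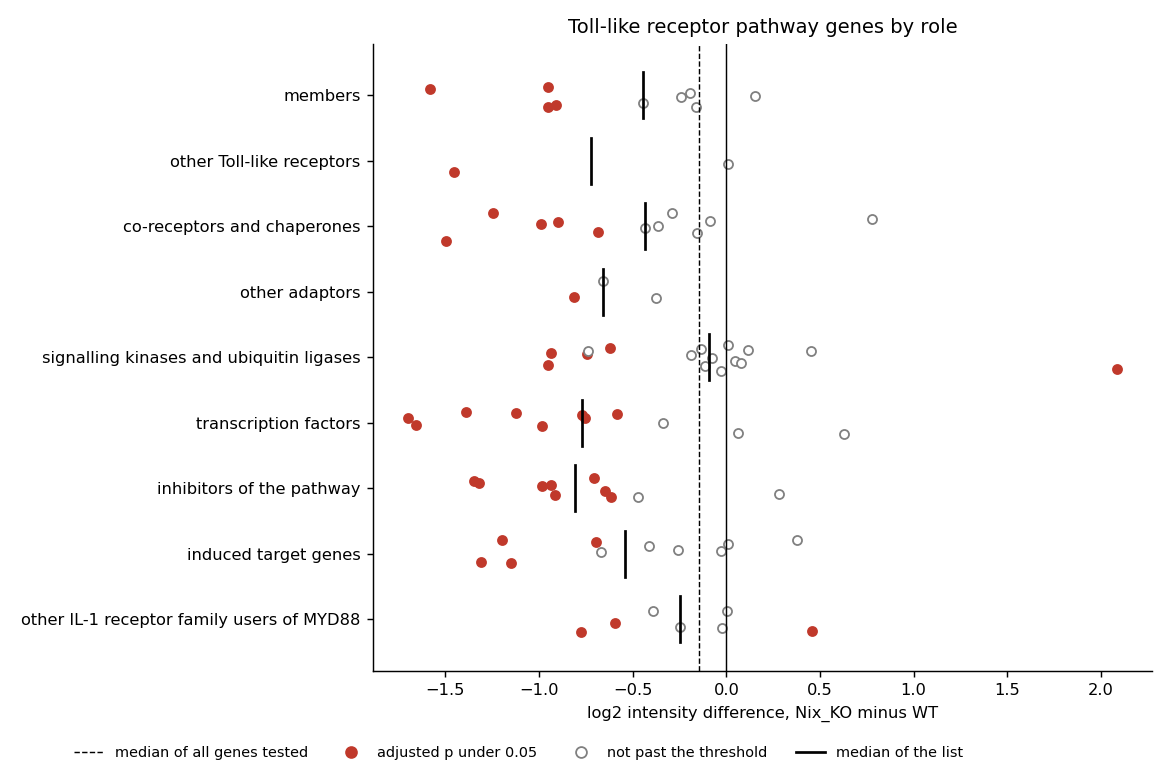
Difference in log2 intensity, Nix_KO minus WT, of each tested gene (points) in the list of Toll-like receptors, Myd88 and Cd180 and in 8 pathway lists (rows), filled where the adjusted p was under 0.05, with list medians as bars. The medians of transcription factors (-0.77) and inhibitors (-0.81) lie to the left of the median of all genes (dashed, -0.15), and Tab3 stands alone at 2.09.

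In whole spleen, fewer cells of a type and less RNA per cell cannot be told apart. All 8 tested B cell markers were lower, where 38.3% of all genes tested were called, 24.1% as lower. The median of these markers was -1.43, beside -1.58 for Cd180 and -0.15 for all genes. Their summed intensity ran from 13298 to 23216 in Nix_KO and from 41175 to 50294 in WT arrays, and the list's mean log2 level was 10.13 ± 0.36 in Nix_KO and 11.66 ± 0.12 in WT arrays (SD, n = 4 each). Cd180 and this mean ranked the arrays in the same order within each genotype, with Nix_KO 10 highest and Nix_KO 2 lowest among the Nix_KO arrays and WT 4 highest and WT 3 lowest among the WT arrays. None of the other 12 probe sets had the order of the B cell mean in both genotypes. This ranking was looked at after the values were seen, and the part of B cell content in the fall of Cd180 was not tested.

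Over all genes tested 38.3% were called, 24.1% as lower and 14.2% as higher. Dendritic cell markers were lower in 5 of 9 tested (55.6%). Among them Batf3, a transcription factor of cross-presenting dendritic cells, was 2.55-fold and Itgax, encoding CD11c, 2.41-fold lower. The sum of the dendritic cell list ran from 2472 to 3778 in Nix_KO and from 3995 to 5504 in WT arrays. Of 13 macrophage and monocyte markers 3 were lower (23.1%, beside 38.3% of all genes called) and 10 did not pass, with a median of -0.45. Their sums were 28462 to 41191 in Nix_KO and 44227 to 50744 in WT arrays. The mean log2 level of this list overlapped, with Nix_KO 6 at 10.33 and the WT arrays at 10.22 to 10.41. T cell markers were lower in 7 of 9 (77.8%, sums 4416 to 8819 in Nix_KO and 8556 to 13132 in WT arrays). Spleen stroma genes were lower in 6 of 8 (75%, sums 2288 to 5092 in Nix_KO and 6084 to 8683 in WT arrays). Markers of neutrophils and their precursors were higher in 13 of 14 (92.9%, sums 43830 to 79860 in Nix_KO and 7167 to 42802 in WT arrays). Those of red cell precursors were higher in 9 of 9 (100%, sums 102632 to 130946 in Nix_KO and 25088 to 57902 in WT arrays). Of 11 pancreatic genes limma called 0, and 0 had an unadjusted p under 0.05, with sums of 1157 to 103770 in Nix_KO and 1125 to 56689 in WT arrays. The part of any of these in the differences of the receptor genes was not tested.

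**Figure D4:**
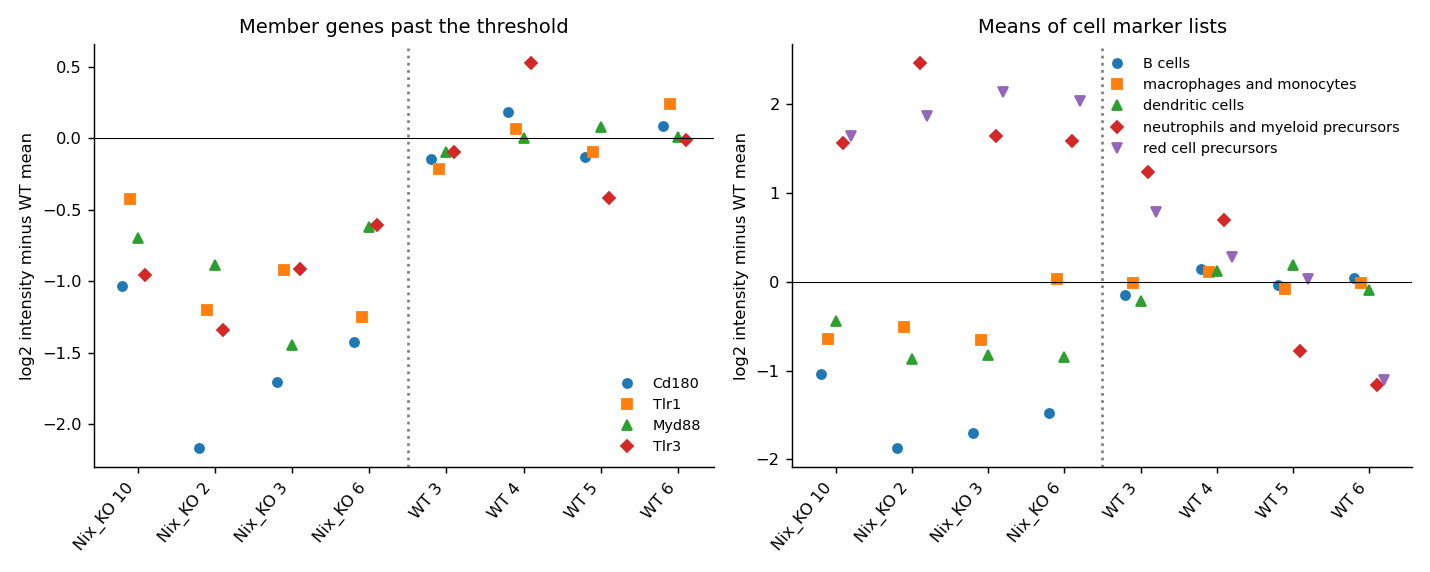
Left, log2 intensity of Cd180, Tlr1, Myd88 and the Tlr3 probe set with the larger fall in each array, minus the gene's WT mean. Right, the same for the mean of 5 cell marker lists. In the Nix_KO arrays the 4 genes and the B cell and dendritic cell lists lie below 0, while the neutrophil and red cell precursor lists lie above it.

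The genes most like each called member over the 8 arrays were those with the smallest root mean square difference after each gene was centred on its own mean. For Cd180 these were Ighv14-2, an immunoglobulin heavy chain variable segment (0.0973 log2 units), and Igfbp3, an insulin-like growth factor binding protein (0.116), among 10679 genes compared, those with provisional symbols left out. Tlr1 was closest to Uhrf1bp1l (0.0677) and to Cd72, a B cell surface receptor (0.101). Myd88 was closest to Tnip1, described above as an inhibitor of the pathway (0.0625), and to Trmt112 (0.0701), and Tlr3 to Dusp16, a phosphatase of MAP kinases (0.0934), and Tmtc4 (0.132). These likenesses include the difference between genotypes that the genes share.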

How the data were processed

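Whole-spleen RNA of 4 Nix-null and 4 wild-type mice was measured on Affymetrix arrays. The authors deposited a single summarised intensity for every probe set on each array. GCRMA is named in the submitters' processing notes, with no version. It is a method of background correction, between-array normalization and probe summary. The deposited intensity values are linear and all above 0, and were log2-transformed without an offset. GCRMA pulls dim probe sets to a common low level, so differences near the filter may be compressed. The 8 arrays limit the precision.

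Of 45101 probe sets, 64 controls were left out and 22347 of 45037 passed the filter (log2 intensity at least 5 in at least 4 arrays). Names came from the platform annotation: 34945 probe sets had 1 symbol, 932 several and 9160 none. A gene was its single-symbol probe set with the highest mean (11027 genes, assembly GRCm38.p6 for names). Groups were compared with limma 3.58.1 in R 4.3.3 (lmFit, eBayes, two-sided). Single differences between probe sets were tested by exact permutation of the 8 arrays (70 splits, two-sided). On simulated data for this comparison over 22347 probe sets, the fit found 2.99% of the 67 probe sets set to change 1.5-fold. At 2-fold it found 32.8% of 67, and at 4-fold 80.3% of 66. False calls made up 4.94% of the calls. No other simulated probe sets changed, whereas 6711 were called in the data. The adjustment was therefore stricter in the simulation, and these shares do not measure how many changes were found in the data. Figures used matplotlib 3.10.9.

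The members and lists were chosen with earlier results of these data known. Genes named were the 10 members, up to 4 called genes of each pathway list by smallest adjusted p, the fixed genes Cd14, Ly96, Ly86, Unc93b1, Tirap, Ticam1, Irak1, Irak4, Traf6 and Nfkbia, the 2 genes most like each called member, and marker examples in order of smallest adjusted p. Irak4 was not analysed here. Slc15a3, Tlr13, Hsp90b1, Lrrc59, Irf7 and Tollip were named, and differences between genes were compared, after the values were seen. The alternatives were other filters, scalings and floors, array weights, an intensity trend, 1 probe set per gene, leaving out arrays, and a replicate block.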

Additional observations from a re-analysis of the deposited data

Results flagged for a closer look

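In 7 of 116 groups of 4 arrays examined 1 array stood far from the other 3, where chance sets apart about 1 in 20 groups. None was a probe set of a Toll-like receptor, Myd88 or Cd180. Among pathway genes, Cnpy3 read 7.26 in Nix_KO 3, against 7.88 to 7.94 in the other Nix_KO arrays, and Il12a 5.37 in Nix_KO 2, against 5.79 to 5.87. Unc93b1 read 10.84 in WT 3, against 11.06 to 11.10 in the other WT arrays, and Traf6 6.94 in WT 4, against 6.61 to 6.65. Among cell markers, WT 3 was low for Batf3 (7.84, others 8.40 to 8.46), C1qa (11.76, others 11.91 to 11.93) and Thy1 (10.48, others 10.96 to 11.03).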

How the results depend on the processing

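The 5 member calls were kept under each filter that tested them, each scaling, floor, weighting and trend alternative, over genes (4 genes), and without any single array; array weights gave a sixth, Tlr2. Fewer members passed under 3 alternatives: 3 with the stricter filter at log2 7, where neither Tlr3 probe set was tested, 0 without Nix_KO 3, WT 3 and WT 5, and 0 with the replicate block (3 at an unadjusted p under 0.05, and 2 genes in the fit over genes). Pathway genes called were 35, and 17 both without those 3 arrays and with the replicate block. Over all probe sets 6711 were called, 3996 to 6993 when a single array was left out (lowest without WT 6, then 4075 without WT 4), 690 without the 3 arrays, 1 with the replicate block and 4227 over genes. The numbers 3 and 6 occur in both genotypes, and nothing shows that they pair the animals. Same-numbered arrays had deviations correlated at 0.252 and 0.147 over probe sets, inside the range of differently numbered ones, -0.493 to 0.384. That block leaves 1 residual degree of freedom among the arrays, and under it Cd180 differed by -1.54, Tlr1 by -1.10 and Myd88 by -0.99. The sign of one Tlr4 probe set, which did not pass in any fit, turned to 0.106 with arrays centred, 0.0707 with quantile normalization and 0.0418 without the 3 arrays, and ran from -0.16 to 0.0874 without single arrays. That of one Tlr7 probe set turned to 0.0335 with arrays centred and 0.114 without the 3 arrays, of Traf6 to 0.0024 with quantile normalization, and of Irak1 to 0.0069 with array weights and to between -0.31 and 0.0036 without single arrays. The causes were not tested.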
